A study of Mus musculus with 6 samples.

Results

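The regions described here are 5059 stretches of open chromatin that were found in GL261 cells at both levels of hypoxia and not in normoxia, of 41308 consensus peaks in all (12.2%). Each was chosen by presence. In every oxygen condition the peak intervals of the 2 replicate libraries were intersected, stretches shared over more than 200 bp were kept, and the stretches of the 3 conditions were merged. A member of the set holds a stretch from 1% O2 and one from <0.1% O2 but none from 21% O2. The same lists gave 28197 consensus peaks (68.3%) with a stretch from every condition. Since the rule used presence in hypoxia and absence in normoxia, the difference between hypoxia and normoxia at these regions is a description and was not tested.

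GL261 is a mouse glioma cell line, here stably expressing pEGFP-N1, and all 6 libraries came from this line. The normoxic group (21% O2), the moderate hypoxia group (1% O2) and the severe hypoxia group (<0.1% O2) had 2 ATACseq libraries each, and the hypoxic cells were held in a chamber for 16 h and fixed with formaldehyde before they were returned to air. In ATACseq a transposase cuts accessible DNA, and a peak is a place where its fragments pile up over the local background. Nothing in the labels says that the replicates were separate cultures, so tests here measure the spread between libraries, which may be technical.

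Cells short of oxygen stabilise the hypoxia-inducible factors HIF-1 and HIF-2, which bind hypoxia response elements (HREs) with the core ACGTG and switch on genes of glycolysis, angiogenesis and pH control. Most regions that open or close when a cell responds to a signal are distal enhancers, and many carry the AP-1 motif TGAGTCA, which is bound by dimers of the Fos and Jun families, or the CACCC box, read here as GGGTGTG, which is bound by Krüppel-like factors (KLFs). Solid tumours such as glioma hold hypoxic zones, in which enhancers of this kind are candidates for the control of hypoxic genes.

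The sequences below, from GRCm38.p6 and read on the strand of the nearest protein-coding gene, show the 3 motifs in members of the set. Capitals mark a match, on either strand, of the motif for which the set is shown and of no other, and each window reaches 50, 75 or 100 bases to either side of the summit. The first set holds the HRE core, which reads CACGT on the other strand. It was taken in order of fold among the members named in the text and leaves out windows with over 30 bases of UTR. The window at *Epo*, the gene of erythropoietin, lies 3′ of a gene whose enhancer is the textbook site of HIF-1 binding.
Gpkow, chrX:7697042-7697142, plus strand: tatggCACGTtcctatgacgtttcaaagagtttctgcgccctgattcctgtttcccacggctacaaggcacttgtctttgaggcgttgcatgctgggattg
Pecam1, chr11:106713740-106713940, minus strand: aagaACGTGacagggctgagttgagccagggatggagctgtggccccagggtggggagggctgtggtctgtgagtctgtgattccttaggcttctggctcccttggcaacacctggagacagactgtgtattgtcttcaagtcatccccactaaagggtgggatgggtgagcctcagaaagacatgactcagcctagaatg
Snai1, chr2:167574953-167575103, plus strand: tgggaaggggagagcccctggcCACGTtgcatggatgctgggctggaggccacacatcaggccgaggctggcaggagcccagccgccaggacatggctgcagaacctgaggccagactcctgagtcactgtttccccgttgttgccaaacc
Fabp7, chr10:57727855-57727955, plus strand: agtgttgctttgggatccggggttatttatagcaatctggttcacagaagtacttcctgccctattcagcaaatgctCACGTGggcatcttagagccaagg
Epo, chr5:137482077-137482177, minus strand: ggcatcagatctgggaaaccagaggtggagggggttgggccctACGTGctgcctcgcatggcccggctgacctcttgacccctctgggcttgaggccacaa

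The next set shows the AP-1 motif, which was the most frequent of the 3 among the members. It was chosen after the values were seen. The first 4 are from the members with the highest fold and no peak at 21% O2, and the last 4 lie nearest to hypoxia genes, including *Hif1a*, which encodes the HIF-1 alpha subunit, and *Ddit4*, an inhibitor of mTORC1.
Gm11214, chr4:63668443-63668543, minus strand: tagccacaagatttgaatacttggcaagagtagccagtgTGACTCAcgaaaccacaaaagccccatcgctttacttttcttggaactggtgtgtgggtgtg
Zcchc7, chr4:44860047-44860147, plus strand: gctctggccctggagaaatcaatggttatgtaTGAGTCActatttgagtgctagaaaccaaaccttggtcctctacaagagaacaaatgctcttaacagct
Ppp3r1, chr11:17176784-17176884, plus strand: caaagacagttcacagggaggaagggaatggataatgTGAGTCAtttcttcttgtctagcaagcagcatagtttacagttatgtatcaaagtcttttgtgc
Slc25a25, chr2:32458487-32458587, minus strand: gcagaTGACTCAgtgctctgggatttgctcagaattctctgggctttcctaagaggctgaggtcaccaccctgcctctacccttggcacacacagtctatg
Cxcl12, chr6:117268107-117268207, plus strand: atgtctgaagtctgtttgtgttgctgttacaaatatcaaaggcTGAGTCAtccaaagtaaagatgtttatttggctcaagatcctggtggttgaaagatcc
Kdm3a, chr6:71656006-71656106, minus strand: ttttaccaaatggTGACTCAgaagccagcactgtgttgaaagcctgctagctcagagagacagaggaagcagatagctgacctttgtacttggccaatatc
Hif1a, chr12:73842435-73842535, plus strand: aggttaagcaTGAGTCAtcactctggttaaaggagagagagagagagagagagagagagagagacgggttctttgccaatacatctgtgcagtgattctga
Ddit4, chr10:59934208-59934308, minus strand: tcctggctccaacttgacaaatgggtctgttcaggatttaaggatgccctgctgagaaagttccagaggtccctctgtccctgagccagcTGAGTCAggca

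The third set shows the CACCC box, also chosen after the values were seen, at 3 members near list genes. The match near *Slc2a3*, the gene of the neuronal glucose transporter GLUT3, sits beside a run of CA repeats.
Plod2, chr9:92621408-92621508, plus strand: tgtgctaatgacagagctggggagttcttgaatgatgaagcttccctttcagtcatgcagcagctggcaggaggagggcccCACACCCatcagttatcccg
Pim1, chr17:29459587-29459687, plus strand: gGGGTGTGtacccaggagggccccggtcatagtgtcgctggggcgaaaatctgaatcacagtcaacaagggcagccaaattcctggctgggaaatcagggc
Slc2a3, chr6:122766392-122766492, minus strand: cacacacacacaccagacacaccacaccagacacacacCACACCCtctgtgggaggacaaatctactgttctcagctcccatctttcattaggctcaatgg

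Under the 200 bp rule, about as many members had a peak in 1 or both normoxic libraries as had none. That balance depended on the rule, as with stretches over 400 bp only 405 of 3098 members had none. Of the 5059 members, 2390 (47.2%, exact binomial 95% interval 45.9 to 48.6%) overlapped no peak of either 21% O2 library. Another 1866 (36.9%) overlapped a peak of the second normoxic replicate only and 651 (12.9%) a peak of the first only. The remaining 152 (3%) overlapped a peak in both, and in 144 of these the normoxic peaks shared a stretch of 200 bp or less. Without the first normoxic replicate, when the second alone decided presence at 21% O2, there were 3041 members, and without the second 4256.

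The heights of the peaks are part of what chose the members and are given as a description. Fold is the ratio of the fragment pileup at a peak's summit to the local background, as the authors' peak caller gave it. Where a normoxic library listed a peak at a member, the median fold was 5.26 in the first replicate and 5.96 in the second. The medians over all members were 7.64 and 7.32 in the 1% O2 libraries and 7.36 and 6.71 in the <0.1% O2 libraries. The consensus peaks found in all conditions were taller in every library, with medians from 9.09 to 11.4. Between 66.6% and 73.8% of members lay below the median fold of the whole list in each hypoxic library, so the set is made mostly of peaks of modest height.

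**Figure D1:**
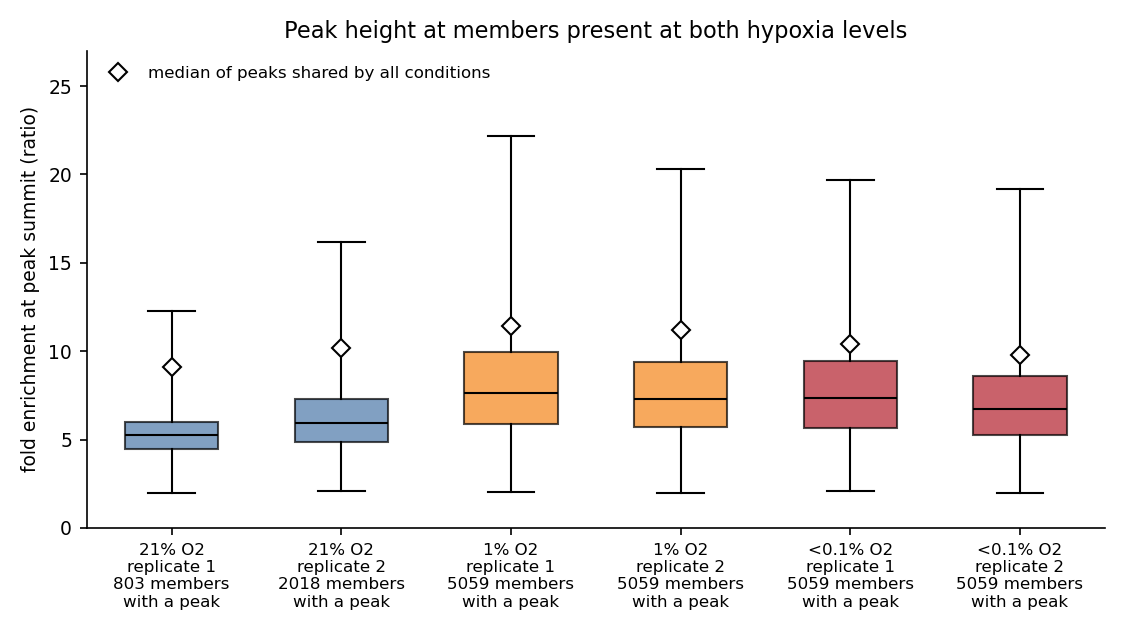
Fold enrichment at the summit (a ratio, linear axis) of the peaks on the 5059 members in each of the 6 libraries, where a library listed a peak. Boxes span the quartiles with the median as a line, whiskers reach the lowest and highest value, and open diamonds give the median of consensus peaks found in all conditions, which stands above the member median in every library.

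The libraries differed in depth, and that difference runs with the rule. The normoxic libraries listed 33006 and 36188 peaks and the hypoxic ones from 39348 to 43554. The mean fragment coverage of the genome, read from the smallest background in each list, was 2.16 and 2.36 in normoxia and 2.93 to 3.35 in hypoxia. When hypoxic peaks were kept only if their summits would still pass at the coverage of the shallowest library, there were 4966 members. The peaks kept had their intervals unchanged, so this count does not cover any effect of depth on peak width, on which the 200 bp rule rests. When every list was cut to its top 33006 peaks by q-value, there were 2621. At the 200 bp limit itself, 90 members had a normoxic stretch that fell short by less than 50 bp, with a median hypoxic fold of 7.04 and a normoxic one of 5.66, and 443 peaks of all conditions had one that passed it by at most 50 bp, with medians of 7.72 and 6. On the hypoxic side, 841 members passed by at most 50 bp in their shorter stretch, with a median fold of 6.66, and 119 peaks of a single hypoxia level missed the set by less than 50 bp at the other level, with a median of 5.93.

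The labelled cell type was checked at promoters of marker genes. Of 14 glial and glioma genes, 11 had a promoter peak in all 6 libraries, while *Sox9* and *Egfr* had none in any. Of 11 markers of neurons, leukocytes, endothelium and fibroblasts, 3 (*Csf1r*, *Col1a1* and *Col1a2*) had a promoter peak in all 6 and 5 in none. The part of other cells in the results was not tested.

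In the genome, the members were distal. A consensus peak was called promoter when it reached within 2000 bp of the start site of any annotated transcript, coding or not, and 723 members (14.3%, exact binomial 95% interval 13.3 to 15.3%) were, against 45.8% of the peaks found in all conditions and 36.5% of the whole series. Introns held 2231 members (44.1%), intergenic DNA 1970 (38.9%) and exons 135 (2.67%). The median distance to a protein-coding start site was 26189 bp, against 8927 bp for peaks of all conditions, and 17.3% lay over 100000 bp away. Of the 723 promoter members, 390 had their summit within 2000 bp of a protein-coding start site, and of the 12909 promoter peaks of all conditions 10995 did. With a window of 500 bp, 5.99% of members and 40.5% of peaks of all conditions were promoters. Peaks of a single condition were distal too. Promoters made up 17.5% of those of 1% O2, 11.9% of those of <0.1% O2 and 21.2% of those of normoxia, and a low share is therefore not particular to the members. These intervals cover the counting of regions only, and regions are not replicates of a condition.

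**Figure D2:**
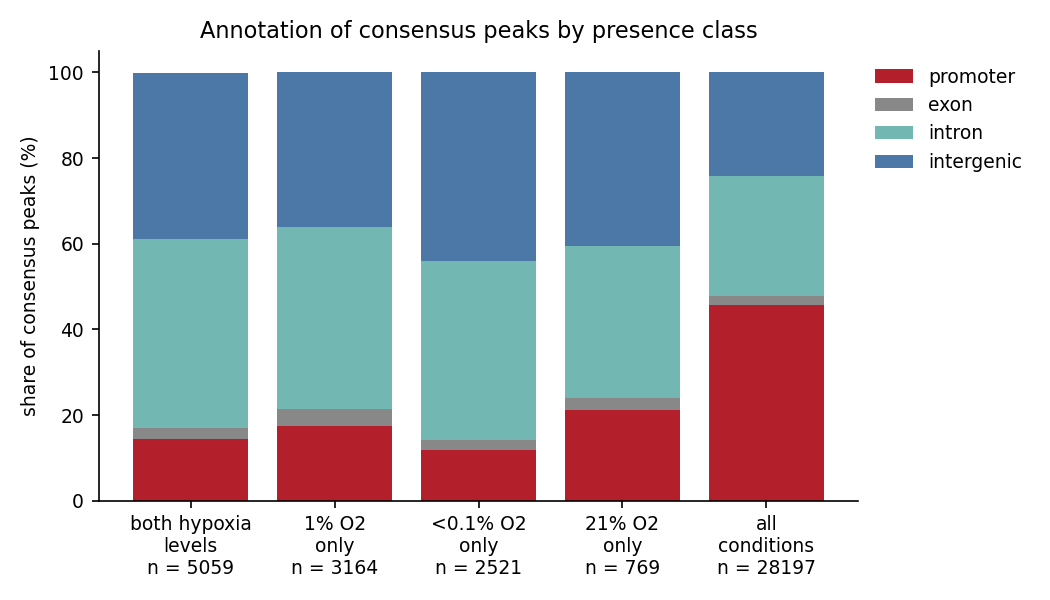
Share of consensus peaks (%) annotated as promoter, exon, intron or intergenic, by the conditions in which a stretch was found, with the number of peaks under each bar. The promoter part is 14.3% for the members and 45.8% for peaks found in all conditions.

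The members were also narrower and poorer in CpG than constitutive peaks. The median width was 410 bp, against 829 bp for peaks of all conditions, 279 bp for peaks of 1% O2 only and 301 bp for peaks of <0.1% O2 only. It was 413 bp for peaks of 21% and 1% O2 and 411 bp for peaks of 21% and <0.1% O2. A consensus peak spans the merged stretches of its conditions, and the width of the members is not particular to them. Within 100 bases of the summit the median GC content was 49.8% against 54.7%, with a median of 2 CpG sites against 5. Bases marked as repeats made up 11.7% of these windows on average, against 8.34%. Peaks of 1 condition only also lay apart from constitutive peaks in GC content, CpG and repeats, on the same side as the members. Their median GC content was 49.8% at 21% O2, 51.2% at 1% O2 and 46.8% at <0.1% O2, with a median of 3, 3 and 2 CpG sites and 13.1%, 11.5% and 13.7% of bases in repeats. Members were not crowded beside constitutive peaks, as 6.66% had one within 2000 bp and the median gap to the nearest was 15788 bp. Among members within 100000 bp of a protein-coding start site, the nearest gene of 62.6% had a promoter peak in all conditions. The share was 59.7% for peaks of 21% O2 only, 60.2% for 1% O2 only and 61.5% for <0.1% O2 only. It was 75.7% over the whole series and 82% for peaks of all conditions. Those 2 shares count the very promoter peaks that define it, so the members cannot be compared with them. They lay on every chromosome but Y, and made up from 8.99% of the consensus peaks of chromosome X to 15.4% of those of chromosome 15.

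Sequence was not used by the rule, and the members differed from constitutive peaks by a larger share with AP-1 and the CACCC box. Motifs were searched on both strands within 100 bases of the summit, in the 4336 members away from promoters. The AP-1 motif TGAGTCA was held by 1426 of them (32.9%, exact binomial 95% interval 31.5 to 34.3%), against 24.7% of distal peaks of all conditions, 10.1% of peaks of 21% O2 only and 25.3% of all 26244 distal consensus peaks. In windows of the same length 500 bp to either side of the members it was in 3.61%. The CACCC box GGGTGTG was in 613 members (14.1%, 13.1 to 15.2%), against 7.77% of peaks of all conditions, 4.13% of peaks of 21% O2 only, 9.05% of the series and 5.04% in the flanks. Of the 21 motifs searched, a panel chosen after the data were seen, these had the largest gains in share over peaks of all conditions, 8.2 and 6.33 percentage points, and the ratios were 1.33 and 1.81. No other motif of the panel had a ratio above 1.04.

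The HRE core in the form ACGTG was in 392 distal members (9.04%, 8.2 to 9.93%), in 8.73% of their flanks, in 10.8% of peaks of all conditions and in 10.3% of the series. Of these 392 members, 103 (26.3%) held the match within CACGTG, the E-box that other factors bind. The form GCGTG, which HIFs also bind, was in 13.2% of distal members (12.2 to 14.2%), above the 9.61% of their flanks and below the 15.8% of peaks of all conditions. The longer form TACGTG was in 1.57% of members and 1.75% of peaks of all conditions. Over all members, promoters included, the HRE core was in 475 (9.39%). A match of these letters is not a bound site, and the counts say nothing of where HIF was bound.

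**Figure D3:**
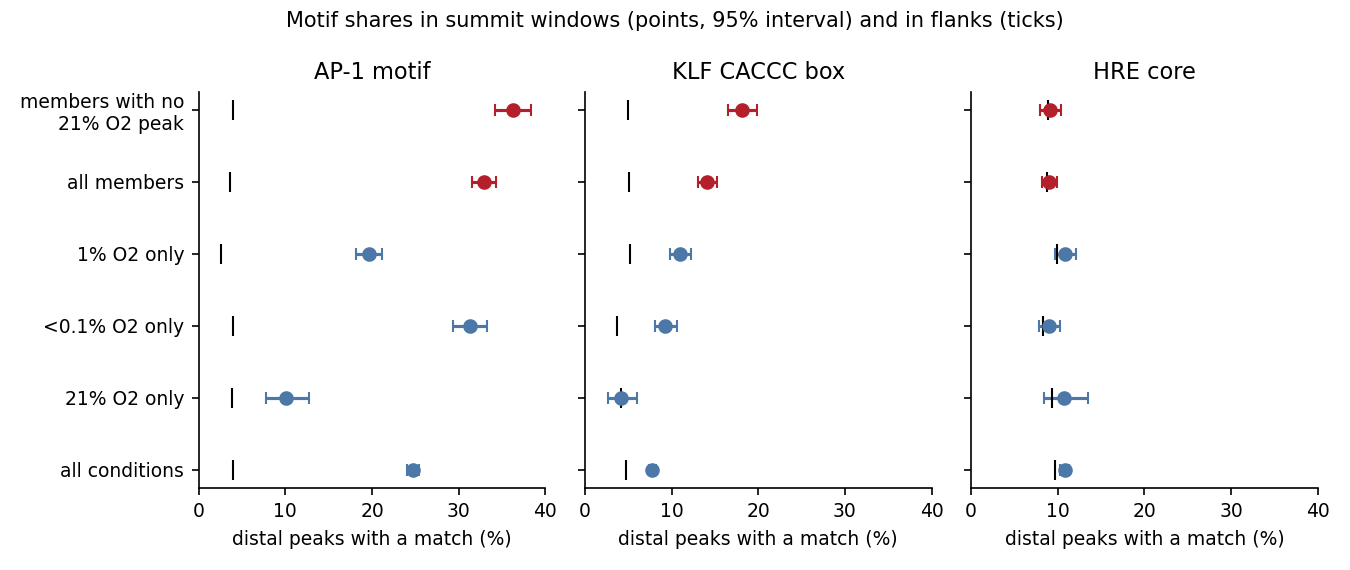
Share of distal consensus peaks (%) with the AP-1 motif, the CACCC box and the HRE core within 100 bases of the summit, by presence class. Points are shares with exact binomial 95% intervals and ticks are the shares in flanks of equal length. The members reach 32.9% for AP-1 and 14.1% for the CACCC box, and their HRE point, at 9.04%, lies on its flank tick at 8.73%.

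The AP-1 share was not particular to regions open at both levels. Peaks found at <0.1% O2 only held the motif in 31.3% (29.4 to 33.3%), an interval that overlaps that of the members, and peaks found at 1% O2 only in 19.7% (18.1 to 21.2%). For the CACCC box the order differed, with 11% at 1% O2 only (9.82 to 12.3%) and 9.27% at <0.1% O2 only (8.1 to 10.6%), both below the members. Promoter members also carried AP-1 in 23.5%, against 5.72% of promoter peaks of all conditions, and the HRE core in 11.5%, against 18.4%.

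Members without any normoxic peak held more of both motifs than those with one. The AP-1 share was 36.3% (34.2 to 38.4%) of the 2053 distal members with no peak at 21% O2 and 29.8% (28 to 31.8%) of the 2283 with one. The CACCC box was in 18.1% (16.5 to 19.9%) of the first and in 10.6% (9.33 to 11.9%) of the second. The HRE core was in 9.11% and 8.98%. AP-1 was in 29.9% of the distal members with a CACCC box and in 33.4% of those without, and 42.8% of distal members held at least one of them. Neither these nor the HRE core was held by 2269 of 4336 (52.3%). In 10.9% of the members with AP-1 and 16.8% of those with the CACCC box every match touched bases marked as repeats, against 7.25% and 14% for peaks of all conditions.

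The AP-1 share increased with the height of the peak in hypoxia. It was 21.6% of distal members with a mean hypoxic fold below 5, 27% from 5 to 8, 40.6% from 8 to 12 and 54.5% at 12 or more, while in peaks of all conditions it went from 11.7% through 17.1% and 23.9% to 33.5%. Members thus held more AP-1 than peaks of all conditions in each of the 4 ranges, and the same held for the CACCC box, at 22.7% against 9.76% in the highest range. The HRE core showed no such increase, with 11.3% in the lowest range and 7.36% (4.67 to 10.9%) in the highest. Base composition moved with AP-1, as the share was 37.8% in distal members with a GC content below 45%, 33.3% from 45 to 55% and 24.6% above. In peaks of all conditions it was 26.1%, 27.2% and 17.6% in the same ranges. The part of base composition in the AP-1 shares was not tested.

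Along the DNA, AP-1 matches gathered at the summit. In bins of 25 bp, 7.38% and 8.03% of distal members had a match in the bins just left and right of the summit and 0.554% in the bin at the left end of the 500 bp examined. The CACCC box was broader, with 2.01% and 2.05% at the summit, up to 2.54% at 37 bp and 0.623% at the left end. The HRE core stayed level, at 1.25% and 1.22% at the summit and 0.923% at the left end. All 2080 words of 6 bases, each taken with its reverse complement, were also counted. The windows were those of the motif shares, so this count is not independent of them. The words that gained most over peaks of all conditions were GACTCA (38.8% against 30.7%) and GAGTCA (39.6% against 32%), both inside the AP-1 motif, then CACACC (21.3% against 14.1%) and ACACCC (20.5% against 13.6%), both inside the CACCC box. None of the first 15 words held the HRE core.

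**Figure D4:**
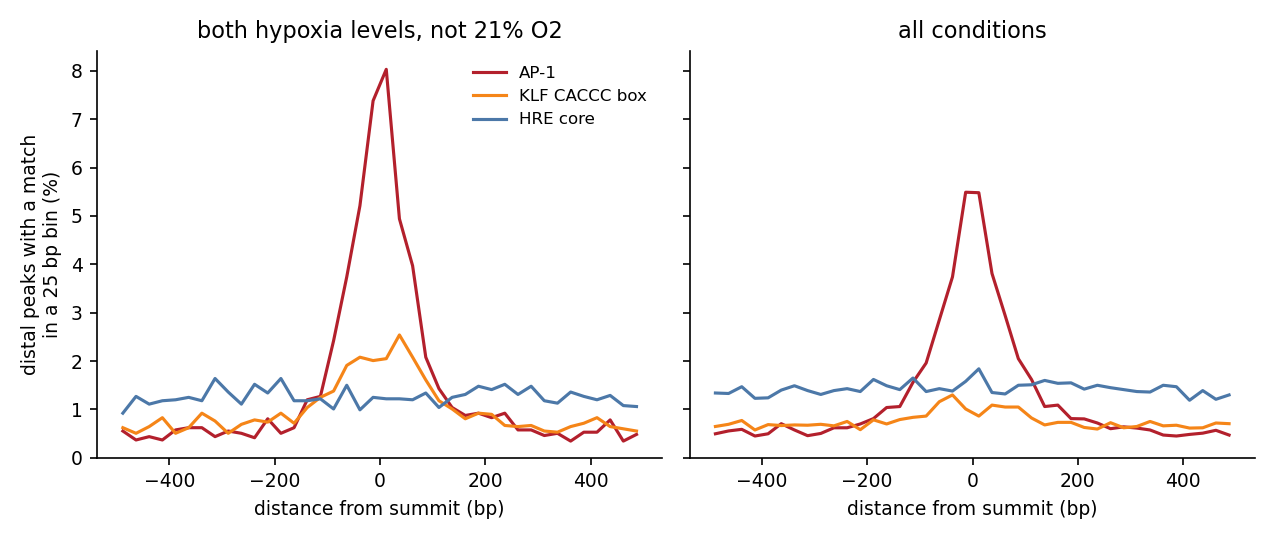
Share of distal peaks (%) with a motif match in each 25 bp bin, against the distance from the summit in bp, for the members (left) and for peaks found in all conditions (right). AP-1 rises to 8.03% beside the summit of the members, the CACCC box to 2.54%, and the HRE core stays near its level at the edges.

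Most of the tallest members with no normoxic peak held AP-1. Of the 10 with the highest mean hypoxic fold, 9 held the AP-1 motif, none the HRE core and 1 the CACCC box, and 6 lay in introns and 4 between genes. Their folds ran from 12.7 to 21 over the 40 values in hypoxia. The tallest of them was an intergenic region at chr4:63668382-63668697, 5583 bp upstream of *Gm11214*, with folds of 18.2 and 18.2 at 1% O2 and 18 and 18.3 at <0.1% O2. The folds of this region overlapped between the hypoxia levels.

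An intronic region of *Ppp3r1*, which encodes the regulatory subunit of the phosphatase calcineurin, had folds of 21 and 16.6 at 1% O2 and 15.5 and 15.6 at <0.1% O2. Both severe libraries were below both moderate ones there, with an adjusted p of 0.458 in limma. A region 7092 bp upstream of *Slc25a25*, a mitochondrial ATP-Mg carrier, had folds of 18.1 and 18.3 at 1% O2 and 17.9 and 13.9 at <0.1% O2. Its adjusted p in limma was 0.662 by fold and 0.047 by pileup, where it was higher at <0.1% O2. Both of these regions held the AP-1 motif and neither normoxic library listed a peak at them.

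At promoters, 2 of the 10 tallest members had no normoxic peak, 5 held AP-1 and 1 the HRE core. They are named by the nearest protein-coding gene, which need not be the gene whose start site made them promoters. The tallest was at *Mfap4*, a microfibril protein of the extracellular matrix, with a fold of 7.61 in the second normoxic replicate, none listed in the first, 18.9 and 18.3 at 1% O2 and 17.8 and 16.6 at <0.1% O2. All 4 hypoxic values were above the only normoxic one. The one with the HRE core was at *Gpkow*, a nuclear RNA-binding protein gene, 39 bp upstream of the start site. Its folds were 13.7 in the second normoxic replicate, 12.2 and 17.5 at 1% O2 and 14.7 and 13.9 at <0.1% O2. The normoxic value lay inside the hypoxic range, and the first normoxic replicate listed no peak there.

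Genes of the hypoxic response were sought among the nearest protein-coding genes within 100000 bp. Of 94 genes with a consensus peak in 6 lists (glycolysis, oxygen sensing, angiogenic factors, lactate and pH, mitophagy and stress, and the unfolded protein response), 27 (28.7%) had a member, beside 23.2% of all 14470 protein-coding genes with a consensus peak. The share was thus near that of genes at large. Without the first normoxic replicate 16 of these genes had a member. The 41 members at the 27 genes had mean hypoxic folds from 2.33 to 14.3 with a median of 6.09, 10 were promoters, 18 had no normoxic peak, 11 held AP-1, 4 the CACCC box and 3 the HRE core.

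Glycolysis and glucose uptake had a member at 6 of 23 genes. *Slc2a1*, the gene of the glucose transporter GLUT1, had 3, all upstream at 2798, 6340 and 25808 bp from its start site, and none of them overlapped a normoxic peak. The tallest had folds of 6.11 and 6.64 at 1% O2 and 5.91 and 5.73 at <0.1% O2 and held AP-1. Both severe values were below both moderate ones, with an adjusted p of 0.991 in limma. *Hk2*, the hexokinase that traps glucose in the cell, had 3 as well, 47525 to 81084 bp upstream, and the nearest of these held an HRE core. *Pfkl*, *Pfkp* and *Pkm*, which encode phosphofructokinases and pyruvate kinase, and *Slc2a3* had the other 6.

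Oxygen sensing had a member at 6 of 21 genes. The region 58890 bp upstream of *Hif1a* had folds of 8.8 and 6.01 at 1% O2 and 9.6 and 7.65 at <0.1% O2, with no normoxic peak. The region in an intron of *Epas1*, the HIF-2 alpha gene, had folds of 5.35 and 5.51 at 1% O2 and 6.62 and 5.56 at <0.1% O2, also with no normoxic peak. The levels overlapped at *Hif1a* and not at *Epas1*, where the adjusted p in limma was 0.348. *Kdm3a* and *Kdm4b*, histone lysine demethylases that need oxygen, had 2 members each, *Bhlhe41* and *Plod2* 1 each.

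Among angiogenic and secreted factors 7 of 17 genes had a member, *Vegfa*, *Adm*, *Pgf*, *Pdgfb*, *Epo*, *Cxcl12* and *Cxcr4*. The *Epo* region, whose HRE is printed above, lay 3689 bp downstream of the start site. Both normoxic libraries listed a peak there, with folds of 5.03 and 4.71, against 7.72 and 7.5 at 1% O2 and 4.73 and 4.79 at <0.1% O2. The 1% O2 libraries stood above the other 4, and the <0.1% O2 values lay within the normoxic range. By pileup the <0.1% O2 libraries, at 30 and 26 fragments, were close to the 1% O2 ones, at 33 and 31. The normoxic ones had 16 and 17 in the shallowest libraries of the series, and pileups are not scaled for depth. The difference between hypoxia levels on the log2 fold scale was -0.55 ± 0.15 (SE), with an adjusted p of 0.111 in limma.

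The region 31123 bp upstream of *Vegfa*, the main angiogenic growth factor, had folds of 6.37 and 6.01 at 1% O2 and 5.98 and 4.78 at <0.1% O2, and no normoxic peak. At *Adm*, which encodes the vessel-dilating peptide adrenomedullin, the folds were 9.38 and 3.01 at 1% O2 and 11.3 and 3.01 at <0.1% O2. In the first replicate of each level the peak on this member had its summit outside the region, so the 9.38 and 11.3 belong to a neighbouring summit. Such summits were found in at least 1 hypoxic library at 113 of the 5059 members (2.23%).

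Lactate and pH control had 2 of 8 genes. The promoter of *Car12*, a membrane carbonic anhydrase, held an HRE core and had folds of 4.68 in the second normoxic replicate, 7.13 and 8.27 at 1% O2 and 5.13 and 4.19 at <0.1% O2. The 1% O2 values were the highest, and the normoxic value lay between the <0.1% O2 ones, with an adjusted p of 0.109 in limma between the hypoxia levels. The region 22350 bp upstream of *Slc16a1*, the lactate transporter MCT1, had folds of 8.66 and 9.27 at 1% O2 and 10.5 and 9.57 at <0.1% O2 and no normoxic peak, with an adjusted p of 0.202. In *Slc16a1* the order was the opposite of that in *Car12*, and neither difference in fold passed the test. By pileup *Slc16a1* rose, from 33 and 36 fragments at 1% O2 to 52 and 53 at <0.1% O2, with an adjusted p of 0.0175 in limma, and the adjusted p for *Car12* was 0.077.

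Of the mitophagy and stress genes 3 of 9 had a member, *Bnip3*, *Pim1* and *Ddit4*, and *Ddit4* had 4, from 2755 to 19113 bp downstream of its start site. The unfolded protein response had 3 of 16, the lowest share of the 6 lists at 18.8%. There the region 10715 bp upstream of *Xbp1*, a transcription factor of that response, was the tallest of the 41, with folds of 14 in the second normoxic replicate, 18.2 and 14.6 at 1% O2 and 13.4 and 11.6 at <0.1% O2. The region near *Herpud1*, a factor of protein degradation at the endoplasmic reticulum, had folds of 10.5 and 10.1 at 1% O2 and 11 and 11.7 at <0.1% O2 with no normoxic peak. At *Xbp1* the normoxic value lay inside the hypoxic range, and at *Herpud1* both severe libraries were above both moderate ones, with an adjusted p of 0.197 in limma. By pileup the *Herpud1* region rose, from 57 and 52 fragments to 73 and 80, with an adjusted p of 0.0141 in limma.

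**Figure D5:**
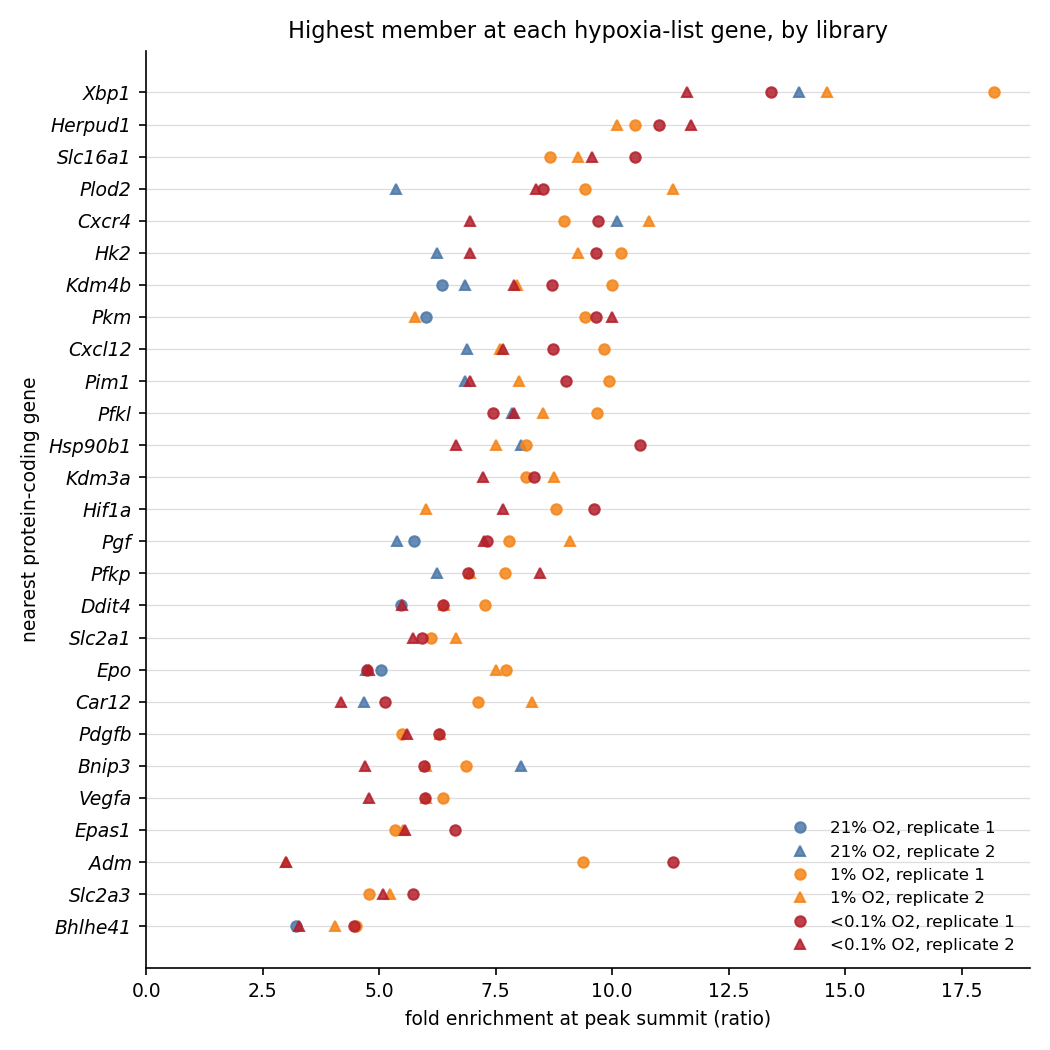
Fold enrichment (a ratio, linear axis) of the tallest member at each of the 27 hypoxia genes in every library that listed a peak, with circles for replicate 1 and triangles for replicate 2. Blue points are 21% O2, orange 1% O2 and red <0.1% O2. *Xbp1* is at the top with up to 18.2, and the red points of *Epo* and *Car12* lie with the blue ones.

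Outside the hypoxia lists, genes of AP-1 factors had a member at 5 of 11 (45.5%), *Fos*, *Fosb*, *Batf*, *Maff* and *Mafk*. Of all protein-coding genes with a consensus peak 23.2% had one, the share to set beside this list and those below. The lists are short, and differences from that share were not tested. The region near *Maff*, a small Maf protein, lay in an intron of *Tmem184b*, held AP-1 and had folds of 9.76 and 9.47 at 1% O2 and 10.5 and 9.27 at <0.1% O2, with no normoxic peak. The region 18313 bp downstream of the *Fos* start site was low, with folds of 3.49 and 3.62 at 1% O2 and 3.61 and 3.66 at <0.1% O2, and held no AP-1. Both had values that overlapped between the hypoxia levels.

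Extracellular matrix and invasion genes had a member at 6 of 20 (30%, beside 23.2% of all protein-coding genes with a consensus peak). The tallest was in an intron of *Tnc*, which encodes tenascin C, a matrix protein of glioma, with folds of 12.7 in the second normoxic replicate, 18.5 and 16.7 at 1% O2 and 16.1 and 17.3 at <0.1% O2. The others were near *Itgav*, *Snai1*, *Zeb1*, *Tgfbi* and *Cd44*, and the region near *Zeb1*, a repressor of epithelial genes, had folds of 7.96 in the first normoxic replicate, 11.9 and 10.6 at 1% O2 and 12.1 and 12.3 at <0.1% O2. At both *Tnc* and *Zeb1* all 4 hypoxic values were above the normoxic one, and both held AP-1. Between the hypoxia levels the *Tnc* region had an adjusted p in limma of 0.738 by fold and 0.0347 by pileup, where it was higher at <0.1% O2. The promoter region of *Tgfbi*, a secreted matrix protein, had 0.234 by fold and 0.0391 by pileup, where it was lower, with 32 and 28 fragments at 1% O2 and 18 and 18 at <0.1% O2.

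Glial genes had a member at 5 of 13 (38.5%, beside the same 23.2%), *Olig2*, *Pdgfra*, *Fabp7*, *Sox9* and *Slc1a3*. The region 29527 bp downstream of the start site of *Sox9*, a glial and stem cell factor, had folds of 8.4 and 8.03 at 1% O2 and 7.36 and 9.11 at <0.1% O2 with no normoxic peak, although the *Sox9* promoter had no peak in any library. Markers of other cells had a member at 2 of 7 (28.6%). *Pecam1*, an adhesion protein of endothelium, had a promoter member with folds of 6.85 in the second normoxic replicate, 15 and 12.5 at 1% O2 and 13.7 and 11.4 at <0.1% O2, and *Col1a2*, a collagen of fibroblasts, had 5 members. At *Pecam1* all 4 hypoxic values stood above the normoxic one, and the HRE core of this region lies at the edge of its window.

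Most genes with a member had a single one. The 4184 members within 100000 bp of a protein-coding start site fell to 3361 genes, of which 2693 had 1 member and 114 had 3 or more. *Gas7*, a cytoskeletal adaptor, had 7 of its 19 consensus peaks as members, 5 of them in its body, over chr11:67419553-67640101. *Fyn*, a Src family kinase, had 6 of 11, all within the gene. *Sept9*, a septin, had 6 of 28, and *Col1a2*, *Ddr1*, a collagen receptor, and *Fry* had 5 each. Of the 7 at *Gas7*, 4 had no normoxic peak and 3 held AP-1, and their mean folds ran from 6.23 to 12.1. None of the 5 at *Fry* lacked a normoxic peak in both libraries.

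The rule treats the hypoxia levels alike, so the step from 1% to <0.1% O2 could be tested. All 5059 members had a peak in all 4 hypoxic libraries. The log2 fold correlated across members with Pearson's r of 0.85 between replicates at 1% O2, 0.85 at <0.1% O2 and 0.79 to 0.80 between the levels (n = 5059 regions that share libraries). The test was limma on the log2 fold over all 33506 consensus peaks with a peak in the 4 libraries. It called no member higher at <0.1% O2, where 0.0119% of all peaks tested were called, and 1 lower, where 0.0358% were. At an unadjusted p below 0.05 in limma, 614 of the 5059 members were higher and 393 lower, together 19.9%. Of all peaks tested 9.59% were higher and 10.4% lower, together 20%. More members were thus higher than lower, while slightly more of all peaks tested were lower. The median difference was 0.04 on the log2 fold scale for members and 0.01 for all peaks tested, and the middle 90% of members lay between -0.41 and 0.49.

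By fold, the only member that fell lay in an intron of *Ttc28* at chr5:111239254-111239597, nearest to the start site of *Pitpnb*, 91367 bp away. Its folds were 15 and 13.4 at 1% O2 and 6.44 and 6.7 at <0.1% O2, with no normoxic peak, and it held the CACCC box and no AP-1. Both severe values were below both moderate ones, with a log2 difference of -0.97 and an adjusted p of 0.0387, and it was not called with the replicate number as a block or with the trend against GC content taken out. The GC content around its summit was 63.2%. The 5 largest differences upward, none of them called, were nearest to *Sept7*, *Ctps2*, *Jade1*, *Sema3e* and *Slc39a13*. At *Slc39a13* the folds were 2.65 and 2.51 at 1% O2 and 11.9 and 2.83 at <0.1% O2, and the 11.9 belongs to a summit outside the region. The *Sept7* region had folds of 6.37 and 5.49 at 1% O2 and 10.7 and 11.1 at <0.1% O2, a log2 difference of 1.02 with an adjusted p of 0.0533.

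The value tested decided the number of calls. On the log2 summit pileup, which leaves out the local background, 471 members (9.31%) were higher at <0.1% O2, beside 12% of all peaks tested, and 139 (2.75%) lower, beside 11.8%. With the trend against GC content taken out the counts were 185 (3.66%) and 72 (1.42%), beside 4.27% and 3.76% of all peaks tested, and with any 1 of the 4 libraries left out no member was called either way. With all 4 libraries, with or without that trend, the share of members called was below that of all peaks tested in both directions. The median SE of the log2 difference was larger in members, at 0.21 against 0.16 for all peaks tested. With the trend taken out it was 0.20 against 0.16. The lower share called therefore does not show that members differed less between the levels. Of the distal members higher by pileup 44.6% held AP-1 (39.7 to 49.5%), of those not called 32% and of those lower 17.6% (10.8 to 26.4%). Distal regions with a peak in all conditions had the same order over the same calls, at 30.9%, 24% and 9.73%. The median GC content moved along, at 46.3%, 49.8% and 56.2%. Once the GC trend was taken out the AP-1 shares were 36.1% (28.6 to 44.1%), 32.9% and 25.8% (15.5 to 38.5%), with GC medians of 49.3%, 49.8% and 47.3%.

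By pileup, the largest rise was at the promoter of *1600014C23Rik*, with 36 and 25 fragments at 1% O2 and 104 and 60 at <0.1% O2, a log2 difference of 1.5 after normalization and an adjusted p of 7.45e-05 in limma. Of the tallest members at the 45 list genes with one, 6 were higher by pileup, near the 12% of all peaks tested, and 1, at *Tgfbi*, was lower, beside 11.8%. The rise at *1600014C23Rik* was followed by those of regions nearest to *Slc35f5*, *Defb33*, *Sept7* and *Cfap70*. The largest falls were nearest to *Smim24*, *Pla2g2d*, *Foxf1*, *Pitpnb* and *Ptprf*. The *Smim24* region, in an intron of *Nfic*, a nuclear factor I gene, had 72 and 74 fragments at 1% O2 and 37 and 26 at <0.1% O2, a log2 difference of -1.13 with an adjusted p of 0.000435. Both regions had levels that did not overlap, and by fold the adjusted p was 0.0936 at *1600014C23Rik* and 0.104 at *Smim24*.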

How the data were processed

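The authors trimmed reads with Trimmomatic, aligned them to mm10 with Bowtie2 2.2.5, removed duplicates with Picard and called peaks library by library with MACS2 2.1.1.2. Each deposited peak carries a fold (the ratio of its summit pileup to the local background), and the significance is deposited as -log10 of a p-value and of a q-value. The deposited score column was not used. The whole-number pileup and the background were solved from fold and p-value, which succeeded for 100% of peaks. Read counts were not used here, and limma on peak heights took the place of the test in the study.

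The members, gene lists and tests were chosen with earlier results of these data known, and the motif panel and the splits by pileup after the data were seen. Genes came from GENCODE M21 basic and sequence from the RefSeq copy of GRCm38.p6. The hypoxia levels were compared with limma 3.58.1 in R 4.3.3 (log2 fold, quantile normalization, trended empirical Bayes, Benjamini-Hochberg adjustment, called at an adjusted p below 0.05), which was tested on simulated data. An exact two-sided permutation test of 2 libraries against 2 cannot go below 0.333. The exact binomial 95% intervals cover counting error only. Named were the 10 members with the highest mean log2 fold in hypoxia and no 21% O2 peak, the highest member at each list gene, the 5 largest changes each way between hypoxia levels (since 1 member was called, the upward ones by fold are uncalled), the 10 highest promoter members, and the 5 genes with most members, 6 with a tie. The largest changes by pileup were added after the values were seen. Scripts ran in Python 3.11.15 with pandas 2.3.3, scipy 1.17.1, numpy 2.4.6 and statsmodels 0.14.6.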

Additional observations from a re-analysis of the deposited data

How the results depend on the processing

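With stretches over 400 bp there were 3098 members, 405 of them with no normoxic peak, a promoter share of 18.8% and an AP-1 share of 31%. With lists of equal length these were 2621, 1239, 12.7% and 40.4%, and the CACCC box share was 17.5%. A promoter window of 500 bp gave 5.99%. Halving the reach of the motif search to 50 bases gave 4.86% for the HRE core over all members, 22.9% for AP-1 and 7.86% for the CACCC box, and TACGTG in place of ACGTG gave 1.6%. With 1 library left out, the members numbered 3041 to 6500, those with no normoxic peak 2698 to 4256, and the hypoxia genes with a member 16 to 35, the lowest member and gene counts without the first normoxic replicate and the 4256 without the second. The shares ranged from 14 to 14.6% for promoters, 9.09 to 9.65% for the HRE core, 30.6 to 34.8% for AP-1 and 13.4 to 16.1% for the CACCC box. Between the hypoxia levels, 471 members were higher and 139 lower by pileup (9.31% and 2.75%, beside 12% and 11.8% of all peaks tested), 23 and 7 with median centring (0.455% and 0.138%, beside 0.236% and 0.322%), 340 and 98 by -log10 q (6.72% and 1.94%, beside 9.26% and 8.86%), and 185 and 72 by pileup with the GC trend subtracted (3.66% and 1.42%, beside 4.27% and 3.76%). With a mean fold of at least 5, 2 were higher and 1 lower (0.0451% and 0.0225%, beside 0.019% and 0.0474%). The GC trend subtracted from the fold left 0 lower. With 1 hypoxic library left out, which assumes that the lone library varies like the others, 1 to 5 members were higher and 2 to 5 lower by fold (beside 0.0149 to 0.0866% and 0.0179 to 0.215% of all peaks tested), and 0 and 0 by pileup (0% of all peaks in both directions). The cause of these differences was not tested.

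Across peaks, the deviations of same-numbered libraries from the means of their levels had a correlation of 0.0204 by fold and 0.00618 by pileup. This cannot decide whether same-numbered libraries were handled together, which the labels do not give. With the replicate block 0 members were higher and 0 lower by fold, also with the GC trend subtracted, and 545 and 164 by pileup, 10.8% and 3.24% beside 13.2% of all peaks tested in each direction.

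The lists hold called peaks only, and the heights of regions under the caller's limit are not known. The normoxic libraries were the shallower ones and had the fewer peaks.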
